A study of Arabidopsis thaliana with 12 samples.

Results

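The comparison describes mRNA levels of whole Arabidopsis thaliana seedlings that had been exposed for 48 h to volatiles released by the fungus Tolypocladium inflatum GT22, set against control seedlings of that time, across all genes. Members are the rows of the authors' deposited 48 h table that carry a gene name and whose mean of the control and the volatile value is at least 1 FPKM. They number 18017 of the 53871 rows that the same rule finds over the 3 times of the series (3, 24 and 48 h). The rule uses levels alone and no difference between the groups. At this threshold AT1G06923 stood just inside at 1.15 FPKM in control and 0.847 FPKM under the volatiles, and AT4G35130 just outside at 1.03 and 0.966 FPKM.

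Each of the 2 groups has 2 libraries of total RNA, extracted with the RNeasy Plant Mini kit. The labels name the exposed group by "mVCs" and the other group as control, and the strain comes from the series text. The ecotype, the age of the seedlings and what the control air held are not stated in the sources used. The title of the series names relief of copper and pathogen stress, and no copper or pathogen treatment is labelled in these groups. FPKM counts fragments relative to the length of the transcript and the total number mapped. The deposited table gives 1 such value per gene and group, so neither the spread between libraries nor their depth is known, and no SD can be printed. Nothing in the labels says that the libraries of a group came from separate cultures, and p-values may therefore reflect technical spread alone.

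Jasmonates are hormones made from fatty acids of the chloroplast. Lipoxygenases, allene oxide synthase and allene oxide cyclase act in that order, an active amino acid conjugate binds the receptor COI1, and JAZ repressors are then degraded, which releases MYC transcription factors. Wounding, chewing insects and necrotrophic fungi are the known triggers, and jasmonate also raises synthesis of glucosinolates, the sulfur-rich defence compounds of the cabbage family. Plant cysteine oxidases sense oxygen by marking ERF transcription factors for degradation, and iron-starved roots reduce iron with FRO2 and import it with IRT1.

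The samples carried the transcripts of a green seedling with roots. CASP1, a Casparian strip protein of the root endodermis, stood at 70.3 FPKM in control and 66.8 FPKM under the volatiles. RBCS1A, the small Rubisco subunit of leaf cells, stood at 17014 and 16914.5 FPKM. The summed level of 15 root markers went from 331.4 to 338.3 FPKM, of 10 leaf mesophyll markers from 45708 to 44468 FPKM, of 8 guard cell markers from 67.8 to 61.6 FPKM and of 7 trichome markers from 17.97 to 17.55 FPKM. Of 13 flower and seed markers only SEP3 reached a mean of 1 FPKM, at 7.38 and 7.44 FPKM, and the seed storage genes CRU3, SESA1 and SESA3 were listed at 0 in both groups. Under the volatiles 6 root markers were higher and 9 lower, and 1 leaf mesophyll marker was higher and 9 lower. Of the guard cell markers 1 was higher and 7 lower, and of the trichome markers 3 were higher and 4 lower. None of these markers was called. In whole seedlings, fewer cells of a type and less RNA per cell cannot be told apart for any gene below.

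At 48 h the volatiles went with higher levels of genes of jasmonate synthesis and response, methionine-derived glucosinolates, camalexin and the low-oxygen response. Higher too were 9 rows grouped as defence proteins and enzymes, including the merged row of AT3G13403 and AT3G13404. Of 17987 tested members, 49 had a q-value in the authors' deposited table that lies below 0.05 (0.272%). Of these 42 were higher (0.234%) and 7 lower (0.0389%) under the volatiles. At an unadjusted p-value below 0.05 in that table the split was more even, with 262 higher (1.46%) and 221 lower (1.23%). A gene is said below to have risen or fallen, or to be called, by this rule alone, and the grouping of called genes by role was made after their values were seen. Read as a normal deviate, the deposited statistic would give 21 calls, of which 12 are among the 49. Those 12 are AIG1, GSTF6, AT2G04050, DRM2, FAMT, LOX2, DIN11, LBD41, AT3G13403/AT3G13404, CORI3, PCO1 and AACT1. The log2 ratio of volatiles over control was computed from the FPKM values with no pseudocount. It ran from 0.69 to 4.68 among genes that rose, with a median of 1.12, and from -1.92 to -0.75 among those that fell, with a median of -0.98. The error printed beside a log2 ratio is the ratio divided by the deposited statistic, which assumes that the statistic is a log2 ratio over its error. No header states this, and for most calls the deposited p-value was smaller than that reading gives. For some rows that were not called it was far larger, such as AT5G23411 with a statistic of -60.9 and a p-value of 0.502 in the deposited table. The error ran from 0.25 to 0.93 for called genes, and its median over tested members was 0.30.

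The bulk of the transcriptome did not lean to either side. Of 17974 tested members with a value above 0 in both groups, 8812 lay above and 9162 below a log2 ratio of 0, the median was -0.0037, and 90% of them (from the 5% to the 95% quantile) lay between -0.35 and 0.34. At least 2-fold differences were found in 121 members toward higher and 79 toward lower values, and 172 of them were not called. Of the called genes, 25 rose and 3 fell by at least 2-fold. The median level of the 49 called rows was 15.5 FPKM, and 0 of the 1356 members with a mean from 1 to 2 FPKM were called, where the median error was 0.58 against 0.25 at 100 FPKM and over. The most frequent p-value among calls in the deposited table was the smallest it holds, 5e-05, shared by 44 genes at a q-value of 0.0221. The other 5, BCAT4, CB5-C, CML41, ARCK1 and the merged row of AT3G13403 and AT3G13404, had a p-value of 0.0001 and a q-value of 0.0396 in that table.

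**Figure D1:**
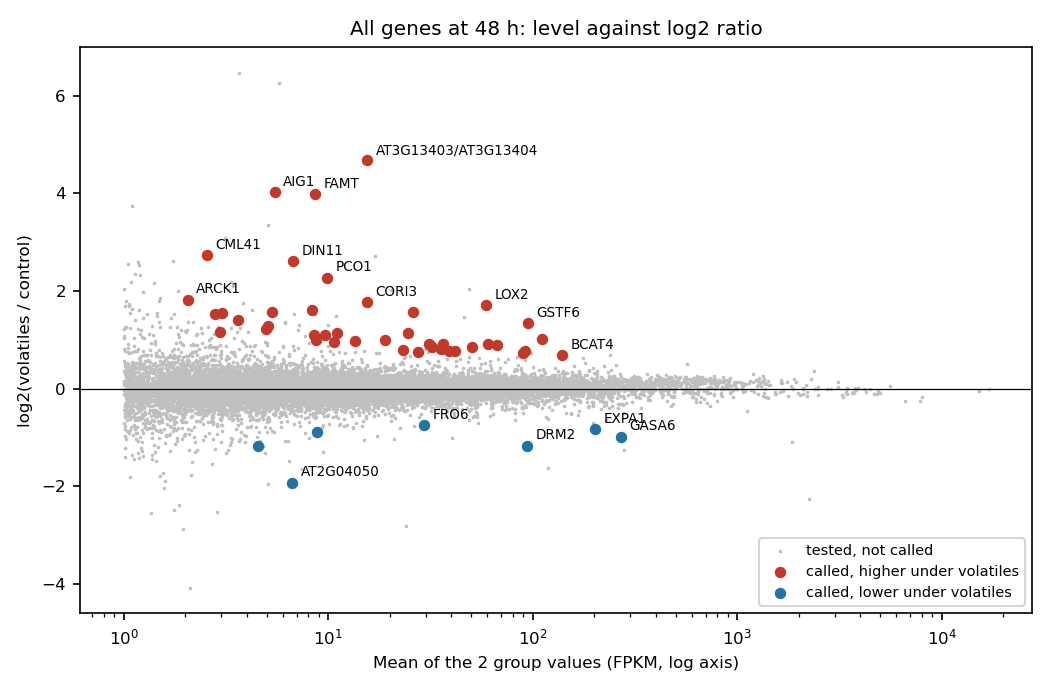
Each point is 1 tested member of the 48 h table, with the mean of the control and volatile values in FPKM on a log axis and the log2 ratio of volatiles over control on the other axis. Red points are the 42 genes that rose and blue points the 7 that fell. Most members lie close to 0, the called genes stand apart from about 2 FPKM upward, and some of the widest log2 ratios at low levels are grey.

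Promoter sequences are shown for 7 called genes that belong to one of the 30 gene lists described below and whose 250 bases before the annotated gene start hold a searched motif, since these lists carry the account of defence, oxygen, nitrate and iron. They were read from the RefSeq genome TAIR10.1, 5′ to 3′ on the strand of the gene. Capitals mark the G-box CACGTG, which MYC and other bHLH or bZIP factors bind, and the W-box TTGACC or TTGACT of WRKY factors, each searched on both strands, so that AGTCAA is a W-box read on the other strand. The GCC-box GCCGCC of ERF factors was searched too. In order, the windows are, for the lipoxygenase LOX2, chr3:16524995-16525244 (plus strand), for the allene oxide synthase AOS, chr5:17099596-17099845 (minus), for the transcription factor LBD41, chr3:538127-538376 (minus), for the pyruvate decarboxylase PDC1, chr4:15954804-15955053 (minus), for the dioxygenase DIN11, chr3:18393497-18393746 (plus), for the nitrate transporter NRT2.1, chr1:2523773-2524022 (plus) and for the ferric reductase FRO6, chr5:20204596-20204845 (minus).
LOX2: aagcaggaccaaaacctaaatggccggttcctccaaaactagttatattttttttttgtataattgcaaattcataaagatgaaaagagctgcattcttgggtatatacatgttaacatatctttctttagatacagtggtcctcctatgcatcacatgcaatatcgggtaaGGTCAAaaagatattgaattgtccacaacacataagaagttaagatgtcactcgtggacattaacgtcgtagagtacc
AOS: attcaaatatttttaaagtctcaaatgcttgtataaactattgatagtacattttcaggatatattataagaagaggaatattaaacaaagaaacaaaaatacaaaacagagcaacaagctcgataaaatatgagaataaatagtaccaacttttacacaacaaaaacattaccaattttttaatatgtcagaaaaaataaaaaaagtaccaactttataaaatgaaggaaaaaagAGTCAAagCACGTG
LBD41: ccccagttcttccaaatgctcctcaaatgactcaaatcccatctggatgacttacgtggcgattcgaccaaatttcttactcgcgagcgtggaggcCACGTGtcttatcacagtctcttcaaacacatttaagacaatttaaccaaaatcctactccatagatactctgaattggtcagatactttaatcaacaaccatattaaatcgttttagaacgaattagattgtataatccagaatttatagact
PDC1: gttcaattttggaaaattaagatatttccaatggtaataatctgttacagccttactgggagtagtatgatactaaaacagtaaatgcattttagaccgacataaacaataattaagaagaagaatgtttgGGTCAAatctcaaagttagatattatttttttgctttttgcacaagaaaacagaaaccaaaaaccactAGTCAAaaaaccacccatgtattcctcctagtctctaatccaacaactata
DIN11: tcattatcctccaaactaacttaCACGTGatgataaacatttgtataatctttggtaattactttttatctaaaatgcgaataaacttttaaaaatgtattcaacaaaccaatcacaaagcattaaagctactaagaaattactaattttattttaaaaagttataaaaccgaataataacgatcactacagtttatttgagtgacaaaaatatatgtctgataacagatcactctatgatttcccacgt
NRT2.1: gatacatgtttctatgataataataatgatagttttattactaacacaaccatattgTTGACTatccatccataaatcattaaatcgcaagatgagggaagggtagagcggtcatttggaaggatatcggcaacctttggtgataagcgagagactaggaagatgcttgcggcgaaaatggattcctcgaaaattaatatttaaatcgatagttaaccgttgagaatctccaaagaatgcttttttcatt
FRO6: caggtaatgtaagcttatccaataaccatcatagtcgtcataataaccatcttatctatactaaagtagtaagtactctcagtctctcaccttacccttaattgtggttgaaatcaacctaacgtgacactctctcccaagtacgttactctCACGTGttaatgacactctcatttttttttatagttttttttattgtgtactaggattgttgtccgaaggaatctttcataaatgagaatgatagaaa

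In these windows the G-box of AOS ended nearest to the gene, and its first base lay 6 bases before the annotated start, with a W-box at 14 bases. The G-box of LBD41 lay at 154, of FRO6 at 98 and of DIN11 at 227 bases before the start. Over the called genes that rose and occupy a row of their own, 5 of 40 windows held a G-box (12.5%) and 15 a W-box (37.5%), beside 6.49% and 28.4% of the 27443 protein-coding promoters of the same length. Over the 16927 promoters of members in a row of their own, the shares were 7.33% and 28.4%. A GCC-box was found in 1 of the 40 windows, that of AACT1, and in 1.87% of all promoters. Among the 7 genes that fell, FRO6 held a G-box and AT2G04050 a W-box. A match describes these letters and says nothing of binding.

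The 3 enzymes of jasmonate synthesis that rose follow each other in the pathway. LOX2, whose promoter is shown above, stood at 27.6 FPKM in control and 90.4 FPKM under the volatiles, a log2 ratio of 1.71 with an error of 0.26. AOS (AT5G42650, TAIR10 chromosome 5, 17097595 to 17099395), which turns the lipoxygenase product into an allene oxide, stood at 41.6 and 78.7 FPKM. AOC1 (AT3G25760, chromosome 3, 9403883 to 9405250), which closes the ring of the hormone, stood at 35.8 and 64.8 FPKM. The pathway list has 12 tested members, of which 11 lay above 0, with a median log2 ratio of 0.67 beside -0.0037 over all tested members. Of the 12, 3 rose, 0 fell and 9 were higher at an unadjusted p-value below 0.05 in the deposited table, beside 1.46% of all tested members. The lists were drawn up with earlier results of these data known, so such counts only describe them. For every list below, the shares over all tested members were 0.234% called higher and 0.0389% called lower. At that unadjusted p-value they were 1.46% higher and 1.23% lower. AOC2, the most abundant cyclase, stood at 183.2 and 294.7 FPKM with a q-value of 0.0626 in the deposited table and was not called. OPR3, the reductase of the peroxisomal step, stood at 23.0 and 38.6 FPKM with that same deposited q-value. OPCL1, a ligase that activates the OPR3 product, stood at 18.4 and 29.0 FPKM, and LOX4, another lipoxygenase, at 0.861 and 1.46 FPKM.

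Downstream of synthesis, a repressor was called. JAZ9 (AT1G70700, chromosome 1, 26654656 to 26657064), a repressor of MYC factors, stood at 25.3 and 47.5 FPKM and was the 1 called gene among 20 tested members of signalling and turnover. Of these 16 lay above 0 and 4 below, the median log2 ratio was 0.36, and 6 were higher at an unadjusted p-value below 0.05 in the deposited table. ILL6, which cleaves amino acid conjugates of jasmonate, stood at 3.52 and 6.54 FPKM and IAR3, of the same hydrolase family, at 19.2 and 27.1 FPKM. CYP94C1, which oxidises the active conjugate, stood at 0.759 and 1.65 FPKM. The symbols JOX1 to JOX4 of this list were not matched to a locus and are not counted. The MYC2 transcription factor itself stood at 9.89 and 12.8 FPKM, and neither this gene nor those hydrolases passed the q-value threshold.

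Genes known to respond to jasmonate gave some of the widest differences. FAMT (AT3G44860, chromosome 3, 16379633 to 16381070), a carboxyl methyltransferase, stood at 1.02 FPKM in control and 16.2 FPKM under the volatiles, a log2 ratio of 3.99 with an error of 0.57. CORI3, a coronatine-induced cystine lyase listed as JR2, stood at 6.97 and 23.9 FPKM, a log2 ratio of 1.78 with an error of 0.31. CLH1, a chlorophyllase, stood at 22.9 and 41.5 FPKM. ARGAH2, an arginase, stood at 30.9 and 52.4 FPKM, so that these 4 genes rose from 1.69-fold (ARGAH2) to 15.9-fold (FAMT). The output list, with 11 tested members, had a median log2 ratio of 1.37 (0.83 with a pseudocount of 1 FPKM) and 10 members above 0. Of these, CLH1 and CORI3 rose and 7 were higher at an unadjusted p-value below 0.05 in the deposited table, beside 1.46% of all tested members. TAT3, a tyrosine aminotransferase, was listed at 0.148 and 11.3 FPKM with a p-value of 0.001 and a q-value of 0.202 in the deposited table. The defensins PDF1.2A and PDF1.2B, which need jasmonate and ethylene together, had values of 5.71 and 16.1 FPKM and of 19.1 and 78.9 FPKM and neither was called. VSP2, a vegetative storage protein with anti-insect activity, stood at 0.829 and 2.15 FPKM.

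**Figure D2:**
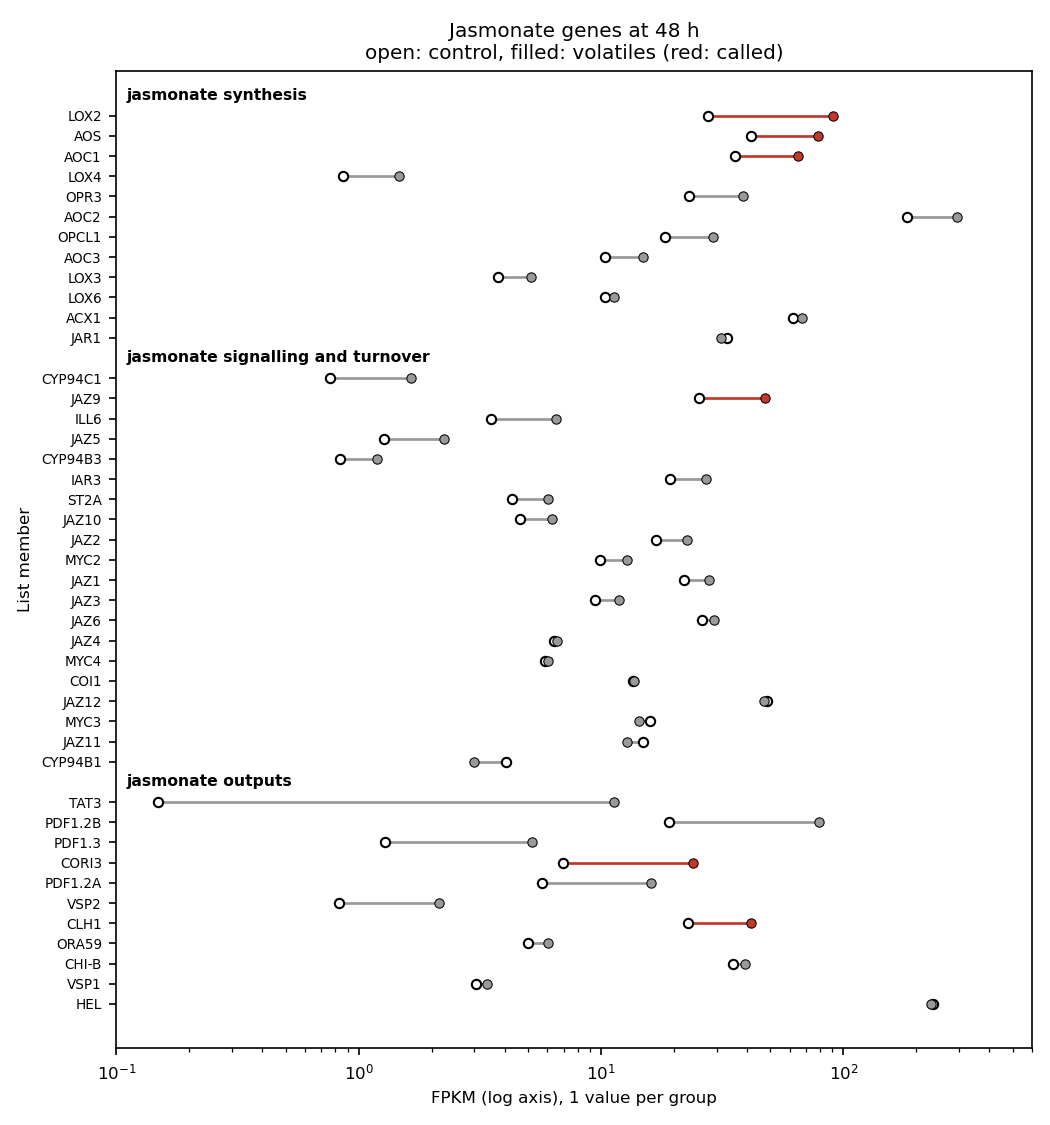
Open circles give the control value and filled circles the volatile value, in FPKM on a log axis, for the tested members of the lists of jasmonate synthesis, signalling and turnover, and outputs. Red marks called genes. Most filled circles lie to the right of the open ones, and the line of TAT3, from 0.148 to 11.3 FPKM, is the longest and is not red.

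Methionine-derived (aliphatic) glucosinolates are built by lengthening methionine, turning it into an aldoxime and then modifying the side chain, and genes of each stage rose. BCAT4 (AT3G19710, in a locus on chromosome 3, 6843662 to 6849497, whose bounds the table also gives for AT3G19700), the aminotransferase that starts chain elongation, stood at 107.0 and 172.3 FPKM, the smallest called log2 ratio at 0.69 with an error of 0.25. CYP79F1 (AT1G16410, chromosome 1, 5608807 to 5611426), the cytochrome P450 that makes the aldoxime, stood at 46.5 and 86.9 FPKM. FMOGS-OX1 and FMOGS-OX3, flavin monooxygenases that oxidise the sulfur of the side chain, had values of 9.14 and 17.9 FPKM and of 17.0 and 29.5 FPKM. Of 24 tested members of the aliphatic list, 20 lay above 0, the median log2 ratio was 0.44, these 4 rose, 0 fell and 15 were higher at an unadjusted p-value below 0.05 in the deposited table. MAM1, the condensing enzyme of elongation, stood at 138.7 and 214.0 FPKM with a deposited q-value of 0.165, and MAM3, which makes longer chains, at 45.8 and 65.4 FPKM. Outside the list, AK3, an aspartate kinase at the entry to methionine synthesis, stood at 20.5 and 34.6 FPKM, and HMT3, a homocysteine methyltransferase, at 2.98 and 7.22 FPKM. Both rose.

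Tryptophan-derived defence compounds gave calls only in the camalexin list. PAD3 (AT3G26830, chromosome 3, 9887948 to 9889705), the cytochrome P450 of the last step of this antifungal indole, stood at 2.99 and 6.98 FPKM, a log2 ratio of 1.22 with an error of 0.37. GSTF6, which conjugates glutathione to the indole intermediate, stood at 53.4 and 135.3 FPKM, a log2 ratio of 1.34 with an error of 0.27. All 13 tested members of the camalexin list lay above 0, with a median log2 ratio of 0.27, and 2 rose. Of the 13, 5 were higher at an unadjusted p-value below 0.05 in the deposited table, beside 1.46% of all tested members. ASB1 and TSA1, which serve the tryptophan supply, had values of 27.4 and 38.1 FPKM and of 75.7 and 98.6 FPKM without being called. The list of indole glucosinolates had a median log2 ratio of 0.23 over 15 tested members, with 0 called and 4 higher at an unadjusted p-value below 0.05 in the deposited table. CYP79B2, which feeds camalexin and indole glucosinolates alike, stood at 44.0 and 58.8 FPKM, and CYP81F2, which modifies the indole ring, at 5.66 and 8.07 FPKM. Whether the camalexin list differs from that of indole glucosinolates was not tested.

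Genes of the low-oxygen response rose without a treatment with low oxygen in the labels. PCO1 (AT5G15120, chromosome 5, 4898641 to 4900581), an oxygen-sensing cysteine oxidase, stood at 3.38 and 16.4 FPKM, a log2 ratio of 2.27 with an error of 0.38. LBD41, a LOB-domain transcription factor whose promoter is shown above, stood at 13.1 and 39.0 FPKM. SAD6, a fatty acid desaturase, stood at 1.98 and 5.27 FPKM, and PDC1, which opens ethanolic fermentation, at 6.12 and 13.1 FPKM. These 4 were the called genes among 19 tested members, of which 17 lay above 0, with a median log2 ratio of 0.46. That median was between 0.19 and 0.58 under the other settings tried, and 9 members were higher at an unadjusted p-value below 0.05 in the deposited table. HB1, a haemoglobin that scavenges nitric oxide, stood at 11.1 and 18.9 FPKM with a deposited q-value of 0.0957. PCO2, a relative of PCO1, stood at 1.97 and 5.12 FPKM with a deposited q-value of 0.115.

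Grouped by role after their values were seen, 7 called genes were placed under immune receptors and signalling, and all 7 rose. The label does not establish a role in immunity for each of them. AIG1 (AT1G33960, chromosome 1, 12346232 to 12348513), a GTP-binding protein induced by avirulent bacteria, stood at 0.638 and 10.3 FPKM, a log2 ratio of 4.02 with an error of 0.56. CML41, a calmodulin-like calcium sensor, stood at 0.663 and 4.42 FPKM, a log2 ratio of 2.74 (1.704 with a pseudocount of 1 FPKM), and XBAT34, an ankyrin-repeat ubiquitin ligase, at 2.68 and 7.91 FPKM. HR4, related to the powdery mildew resistance protein RPW8, stood at 12.6 and 25.1 FPKM. All but HR4 had a control value under 3 FPKM. Of the cysteine-rich receptor-like kinases, CRK13 stood at 1.44 and 4.13 FPKM and ARCK1, also named CRK45, at 0.906 and 3.202 FPKM, a log2 ratio of 1.82 (1.14 with that pseudocount), and these 2 rose of 11 tested members with a median log2 ratio of 0.15. WAK1, a cell wall-associated kinase that binds pectin, has 2 rows over the same bounds in the deposited table. The called row stood at 1.82 and 4.07 FPKM, and the other at 3.45 and 4.34 FPKM with a deposited p-value of 0.523, so the call holds for 1 of the rows of this gene only.

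The lists of salicylic acid and of pattern-triggered immunity gave no call. Of 14 tested members of the first, which make or relay salicylic and pipecolic acid, 10 lay above 0, with a median log2 ratio of 0.15, and 1 was higher at an unadjusted p-value below 0.05 in the deposited table. That gene was ICS1, which makes the salicylic acid precursor, at 7.74 and 10.96 FPKM. EDS5, the exporter of that precursor, stood at 5.09 and 9.12 FPKM. The 18 tested members of the second list had a median log2 ratio of 0.03 (-0.03 over members with a mean of at least 5 FPKM), with 1 member on each side at an unadjusted p-value below 0.05 in the deposited table. RBOHD, the oxidase of the immune oxidative burst, stood at 15.3 and 19.7 FPKM, and CYP82C2, a P450 of indole cyanogenic compounds, at 1.95 and 0.877 FPKM.

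Defence proteins and enzymes outside these pathways made up 9 called rows, all of which rose. The widest log2 ratio of any called row, 4.68 with an error of 0.93, belongs to a row that merges AT3G13403, a defensin-like gene, with AT3G13404 (chromosome 3, 4358179 to 4359007), at 1.17 and 29.9 FPKM. Its level cannot be assigned to either gene. AT3G15356 and AT3G16530, legume lectin family proteins, had values of 73.2 and 147.8 FPKM and of 67.8 and 116.2 FPKM. AT2G43620, of the chitinase family that cuts fungal cell walls, stood at 15.3 and 33.7 FPKM. PLA2A, a patatin-like lipid hydrolase, stood at 6.90 and 15.1 FPKM, AACT1, an acyltransferase, at 4.09 and 12.5 FPKM and AT5G39580, a peroxidase, at 5.80 and 11.6 FPKM. Of the lipid-transfer family, AT4G12490 stood at 25.7 and 45.5 FPKM and AT4G22470 at 28.7 and 49.2 FPKM.

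Detoxifying glutathione transferases had GSTF6 as their 1 call among 25 tested members, with 19 above 0 and a median log2 ratio of 0.15. Of the 25, 6 were higher and 0 lower at an unadjusted p-value below 0.05 in the deposited table, beside 1.46% and 1.23% of all tested members. GSTF7 stood at 60.1 and 92.0 FPKM and GSTF14 at 28.7 and 48.1 FPKM, with deposited q-values of 0.152 and 0.0626. GSTU20, the most abundant of those named here, stood at 470.2 and 669.4 FPKM and was not called.

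**Figure D3:**
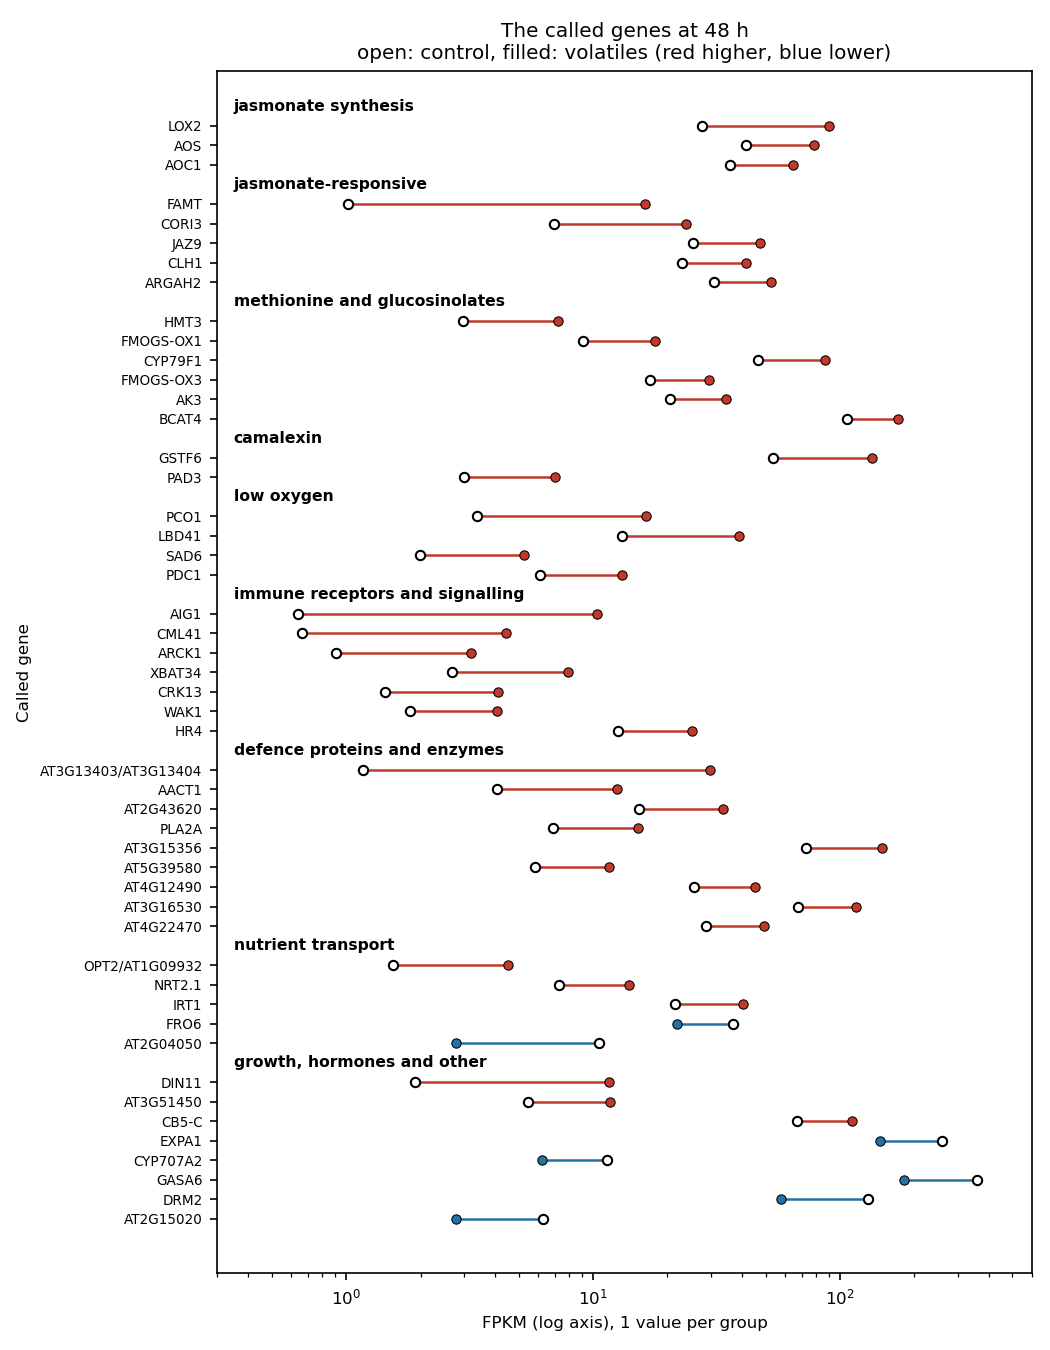
Each line is 1 called row, with an open circle at the control value and a filled circle at the volatile value, in FPKM on a log axis, grouped by role. The 42 red lines run to the right and the 7 blue lines to the left. The blue lines are found only among nutrient transport and growth, hormones and other genes, and 2 of them, GASA6 and EXPA1, start above 200 FPKM.

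Iron genes moved in both directions. IRT1 (AT4G19690, chromosome 4, 10707426 to 10709015), the iron importer of root epidermis, rose from 21.5 to 40.4 FPKM, a log2 ratio of 0.91 with an error of 0.31. FRO6 (AT5G49730, chromosome 5, 20201101 to 20204565), a ferric reductase of the leaf cell surface, fell from 36.9 to 21.9 FPKM, a log2 ratio of -0.75 with an error of 0.27. FRO7, the chloroplast reductase beside it on the chromosome, stood at 15.4 and 9.17 FPKM with a deposited q-value of 0.0539. Of 21 tested members of root iron uptake, 13 lay above 0 and 8 below, with a median log2 ratio of 0.11, and 1 rose. FRO2, the reductase that works with IRT1, stood at 5.89 and 9.50 FPKM, and CYP82C4, which makes an iron-mobilising coumarin, at 1.07 and 2.58 FPKM. BHLH38 and BHLH101, transcription factors of the same iron-deficiency family, had values of 3.09 and 5.72 FPKM and of 3.17 and 1.29 FPKM, and neither was called. Among 11 tested members of ferritin and leaf iron, FRO6 fell and 0 rose, with a median log2 ratio of 0.05.

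Other nutrient and transporter genes gave single calls. NRT2.1, the high-affinity nitrate transporter whose promoter is shown above, rose from 7.27 to 14.0 FPKM, while the median log2 ratio of the 15 tested nitrate genes was -0.0008. NIA1, a nitrate reductase, stood at 101.5 and 77.5 FPKM and was not called. A row that merges OPT2, an oligopeptide transporter, with AT1G09932 rose from 1.54 to 4.54 FPKM, and its level cannot be assigned to either gene. AT2G04050 (chromosome 2, 1337386 to 1339270), an efflux carrier of the MATE family, fell from 10.6 to 2.78 FPKM, the lowest called log2 ratio at -1.92 with an error of 0.44. The lists of copper, phosphate and sulfur had 0 called of 22, 16 and 13 tested members, with median log2 ratios of -0.02, 0.04 and -0.11. At an unadjusted p-value below 0.05 in the deposited table, 1 copper gene was lower, 0 phosphate genes passed and 1 sulfur gene lay on each side. The copper gene was MT3, a metallothionein, at 1296 and 945.7 FPKM. COPT6, a copper importer, stood at 79.2 and 61.6 FPKM, and CSD2, the copper and zinc superoxide dismutase of the chloroplast, at 58.2 and 46.6 FPKM.

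The genes that fell include growth genes of high level. GASA6 (AT1G74670, chromosome 1, 28053286 to 28054149), a gibberellin-regulated peptide of cell elongation, fell from 358.2 to 181.1 FPKM, a log2 ratio of -0.98 with an error of 0.27. EXPA1 (AT1G69530, chromosome 1, 26141778 to 26143524), which loosens cell walls, fell from 258.0 to 145.7 FPKM. DRM2, a dormancy-associated protein, fell from 129.5 to 57.7 FPKM, CYP707A2, which inactivates abscisic acid, from 11.4 to 6.22 FPKM and AT2G15020, of no stated function here, from 6.26 to 2.77 FPKM. No other gene of the GASA and alpha-expansin families was called. The other 4 tested members of the GASA list, in which several symbols were not matched, had log2 ratios from -0.07 to 0.11. Of 17 tested alpha-expansins 9 lay above 0, with a median of 0.02 (-0.02 over members with a mean of at least 5 FPKM). EXPA8 stood at 62.8 and 43.8 FPKM and EXPA16 at 4.31 and 7.22 FPKM, and neither was called. In the list of sugar starvation, to which DRM2 belongs, DIN11, a dark-inducible dioxygenase, rose from 1.90 to 11.6 FPKM, and the median log2 ratio of 16 tested members was -0.13. CB5-C, a cytochrome b5, rose from 67.2 to 111.7 FPKM, and AT3G51450, of the calcium-dependent phosphotriesterase superfamily, from 5.43 to 11.7 FPKM.

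The lists of photosynthesis, the clock, cytokinin, ethylene, abscisic acid and dehydration, auxin, aquaporins, flavonoids, xyloglucan endotransglucosylases and heat shock held no called gene. Of 31 tested photosynthesis genes 25 lay below 0, with a median log2 ratio of -0.06 (0.00 after quantile normalization), and 0 passed an unadjusted p-value of 0.05 in the deposited table. Of 17 clock genes 14 lay below 0, with a median of -0.18, and the 1 at an unadjusted p-value below 0.05 in that table was RVE8, a morning transcription factor, at 5.67 and 3.84 FPKM. Cytokinin response genes lay below 0 in 11 of 12 cases with a median of -0.08. Ethylene response genes had a median of -0.07 over 20, abscisic acid and dehydration genes -0.07 over 20 and auxin response genes 0.10 over 16 tested members. RAB18, a dehydrin that abscisic acid induces, stood at 2.51 and 0.677 FPKM with a p-value of 0.0014 and a q-value of 0.269 in the deposited table. Aquaporins lay below 0 in 17 of 22 cases with a median of -0.05, and TIP2;2 and TIP2;3, of the vacuole membrane, had values of 169.2 and 120.3 FPKM and of 17.0 and 10.4 FPKM. Flavonoid genes had a median of 0.08 over 16, xyloglucan endotransglucosylases 0.06 over 22 and heat shock genes 0.18 over 9 tested members.

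**Figure D4:**
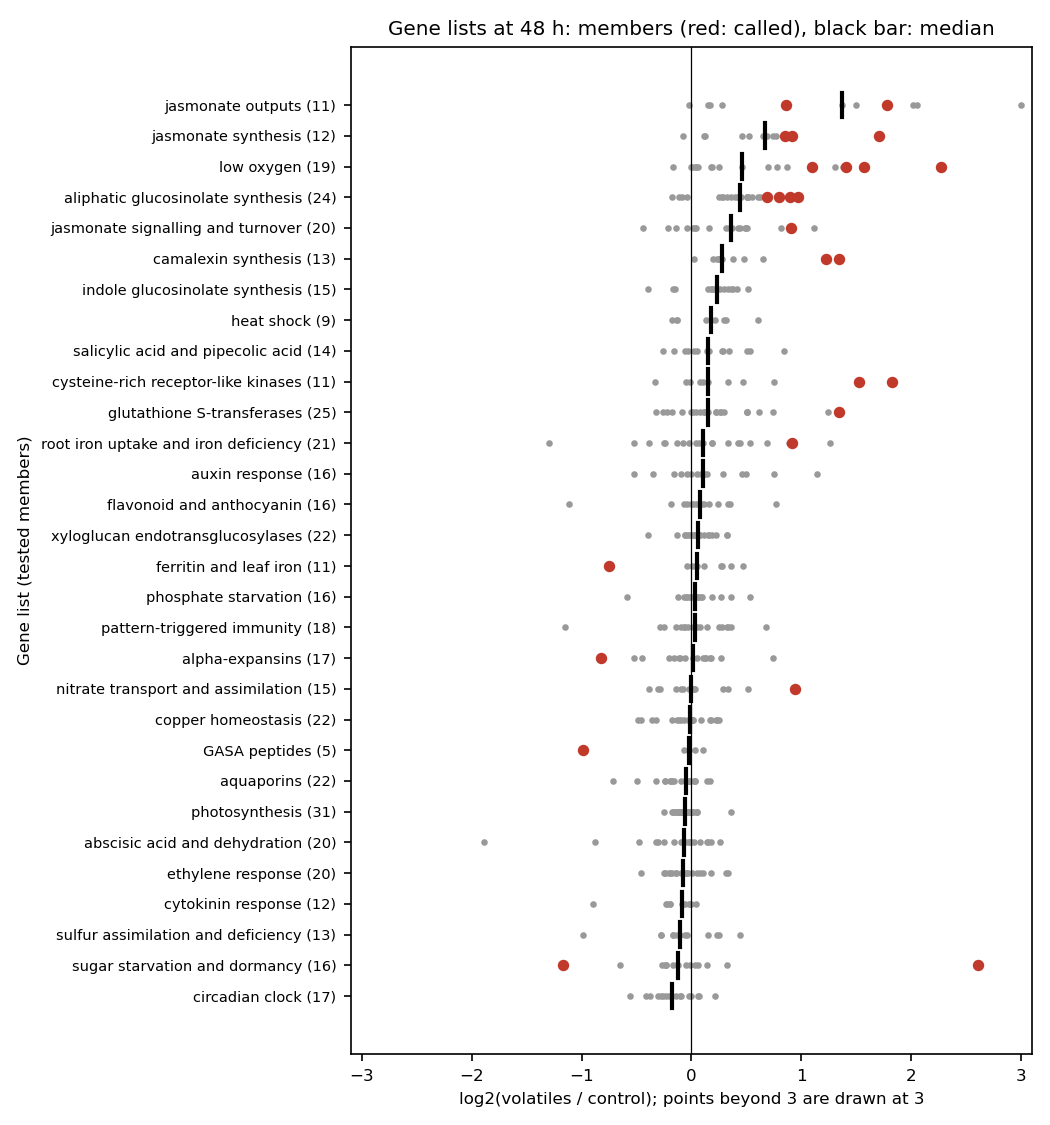
Each row is 1 gene list with its number of tested members, each point a member's log2 ratio of volatiles over control and each black bar the list's median. Red points are called genes, and a point beyond 3 (TAT3) is drawn at 3. The 3 jasmonate lists, low oxygen and aliphatic glucosinolates have the 5 highest medians, from 0.36 to 1.37, and the circadian clock has the lowest at -0.18.

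Several called genes have annotated relatives next to them. Of 66 tested direct neighbours of called genes on the chromosome, 5 had an unadjusted p-value below 0.05 in the deposited table (7.58%), beside 2.69% of all tested members. Of these, 4 moved the same way as the called gene. They are GSTF7 beside GSTF6, AOC2 beside AOC1, FRO7 beside FRO6 and AT4G12500, of the lipid-transfer family, beside AT4G12490, at 13.3 and 22.0 FPKM. AT1G19660 beside CLH1 went the other way, at 61.0 and 40.7 FPKM. Among neighbours 2 and 3 rows away, 2 of 62 and 4 of 68 had such a p-value, and the median log2 ratio was 0.01 at either distance. How the authors' counting treated reads that match more than 1 relative is not stated in the sources used, so the levels of such pairs are uncertain.

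Within 3 rows of 9 called genes lay 16 tested relatives, taken as genes whose symbol differs from the called one only in its last number, a rule set after values were seen. Of these, 11 lay on the same side of 0 as the called gene. An unadjusted p-value below 0.05 in the deposited table was found for 4 of the 16, beside 2.69% of all tested members. GSTF7, AOC2 and FRO7 are among those 4 and were already counted above as direct neighbours. The log2 ratios of the 16 ran from -0.75 (FRO7) to 0.94 (HR3). HR3, next to HR4, stood at 0.935 and 1.797 FPKM with a p-value of 0.0806 in that table, and AOC3, near AOC1, at 10.4 and 14.9 FPKM with a p-value of 0.0203 there. CRK14, next to CRK13, stood at 1.04 and 1.44 FPKM, and WAK2, next to WAK1, at 7.91 and 8.68 FPKM. CYP79F2, next to CYP79F1, stood at 20.1 and 23.9 FPKM and IRT2, next to IRT1, at 7.49 and 7.09 FPKM. None of the 16 was called, and whether a relative differed from its called neighbour was not tested. The rule leaves out every neighbour that is named by its locus alone, so the counts of relatives are incomplete. Of such neighbours, AT1G33930 near AIG1 and AT2G43590 near AT2G43620 had log2 ratios of -0.76 and -0.42, against their called genes. Their p-values in the deposited table were 0.0224 and 0.0167. AT4G12500, named above, went the same way as AT4G12490 at 0.73 with a p-value of 0.0058 there.

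**Figure D5:**
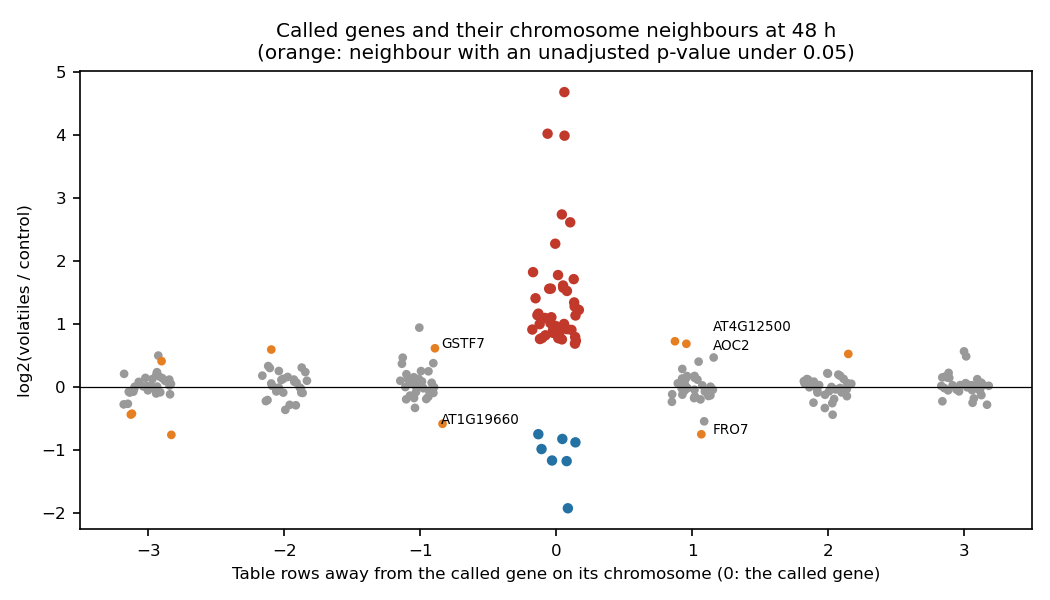
Points give the log2 ratio of volatiles over control for called genes (at 0, red higher and blue lower) and for tested neighbours up to 3 rows away on the chromosome. Orange points have an unadjusted p-value below 0.05 in the authors' deposited table. Neighbours gather around 0, and the 5 orange direct neighbours are named.

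Wide log2 ratios without a call were found at low or uneven levels. NATA1, which acetylates ornithine and is induced by jasmonate, had the highest log2 ratio of all, 6.47, at 0.0819 and 7.27 FPKM with a p-value of 0.156 in the deposited table. MSRB8, a methionine sulfoxide reductase, stood at 0.152 and 2.03 FPKM with a p-value of 0.0915 there. At the other end, AT1G13609 stood at 3.98 and 0.236 FPKM, a log2 ratio of -4.08 with a p-value of 0.200 in the deposited table. AT3G01940 stood at 42.1 and 6.03 FPKM and INT3, an inositol transporter family gene, at 3.43 and 0.464 FPKM. The deposited test did not separate these values.

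A further 5 genes just missed the threshold, with a p-value of 0.00015 and a q-value of 0.0539 in the deposited table. AT1G14250 stood at 1.23 and 3.15 FPKM, and FLOT1, a membrane microdomain protein, at 1.41 and 3.36 FPKM. GLN1;4, a glutamine synthetase, stood at 6.67 and 2.95 FPKM, ORG1 at 59.6 and 38.3 FPKM, and the fifth was FRO7. Called genes lay on all 5 nuclear chromosomes, and 0 of 22 tested chloroplast and 5 tested mitochondrial rows were called.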

How the data were processed

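RNA of whole seedlings was sequenced, with 2 libraries per group. Trimmomatic 3.6, TopHat and the TAIR10 build are named, without roles, per the submitters' processing notes. Per the file headers, the table's columns are laid out as in Cuffdiff output, but no source used states the tool that wrote it. The authors deposited a single FPKM value for each gene in either group and none per library, and the time of the table is known only from its name. The p-values and q-values and the test statistic (a score) were deposited by the authors. No per-sample column was left out. Of 26664 rows, 342 (1.28%) carry no gene name and 8305 named rows have a mean under 1 FPKM. Of the 18017 members 30 were not tested, and 1000 merge several genes and stayed out of the lists. Summed FPKM over all 26664 rows was 973939 in control and 977625 under the volatiles.

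Calls are the authors' q-values under 0.05, adjusted over all 19415 tested rows. Benjamini-Hochberg values computed again differed by at most 5.0e-07. The planned limma model needs a value per library and was not run. Log2 ratios, list medians, promoter matches and neighbours were computed with Python 3.11.15, pandas 2.3.3 and numpy 2.4.6. The adjustment was tested on simulated data. The 30 lists hold 588 loci, of which 493 are members, and 31 symbols were not matched. Among these are JOX1 to JOX4, IMA1 to IMA3, GASA7, GASA9 to GASA13 and GASA15, so their lists are incomplete. Named genes are called rows, up to 6 members per list by deposited p-value, up to 4 markers per list by mean, neighbours with a p-value under 0.05, the 6 widest log2 ratios at either end and rows beside a threshold. Members, lists and this rule were chosen with earlier results of these data known. Coordinates are those of the table, counted from 1, and all 24636 nuclear single-gene loci compared overlapped their gene in TAIR10.1, 14.0% with the same bounds. The promoter of 1 further called list member is not reported here. Other settings were no filter, a mean of at least 5 FPKM, adjustment over members only, a normal p-value of the deposited statistic, a 2-fold minimum, merged rows left out, a pseudocount of 1 FPKM, median centring and quantile normalization.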

Additional observations from a re-analysis of the deposited data

How the results depend on the processing

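The 49 calls were 49 with no filter on low values, 41 with a mean of at least 5 FPKM and 47 without merged rows. Adjusted over members only they were 54, which adds AT1G14250, FLOT1, ORG1, GLN1;4 and FRO7. A minimum of 2-fold left 28, of which 25 were higher and 3 lower. A normal p-value of the deposited statistic gave 21 calls, 16 higher and 5 lower, of which 12 are among the 49. The other 9 include AT5G23411 and ATCG01020, with p-values of 0.502 and 0.545 in the deposited table, and TAT3 at 0.001 there. The cause was not tested. No log2 ratio of a called gene changed sign with a pseudocount, median centring or quantile normalization, and higher calls outnumbered lower ones in each count split by direction. A pseudocount of 1 FPKM moved the log2 ratio of called genes by up to 1.23, median centring by up to 0.0037 and quantile normalization by up to 0.074. It set TAT3 to 3.43 and RAB18 to -1.07, and quantile normalization set TAT3 to 7.27. Medians of pattern-triggered immunity and alpha-expansins changed sign with a mean of at least 5 FPKM, and that of nitrate when centred.

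No paired analysis was possible because the deposited table holds 1 value per group and no value per library. For the same reason leaving out each replicate was not run.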

Other observations

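Of 36 members listed at 0 in 1 of the groups, 14 were listed at 0 in control and 22 under the volatiles. The deposited test covered 13 of them and called 0. ATMG01220, a mitochondrial gene listed at 0 in control and at 3.06 FPKM under the volatiles, had the smallest p-value of these in the authors' deposited table, 0.00095. The chloroplast genes ATCG00070 and ATCG00300 were listed at 0 in 1 group each, with ATCG00070 at 48.6 FPKM under the volatiles and ATCG00300 at 37.7 FPKM in control. A listed 0 can be a failed estimate, and no fold is given.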
